A study of Mus musculus with 12 samples.

Results

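A set of 10 genes for calcium-binding and cytoskeletal proteins was followed across lymph node (LN) T cells: S100a4, S100a6, S100a10, S100a11, Anxa1, Anxa2, Lgals1, Lgals3, Vim and Crip1. They were taken from the deposited count table by gene symbol, as genes known to be raised in effector and antigen-experienced T cells, and all 10 symbols were found among the 49585 genes of the table. All 10 also passed the filter on low counts, which kept 13118 genes. They were also selected on their levels in these same samples, with no single comparison given as the one used, so every fold change of theirs below is a description and carries no P value.

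The samples were 12 pools of sorted LN T cells, 3 in each of 4 groups, from mice aged 6 to 10 weeks that the labels give as male, while the study as a whole states the use of both sexes. CD4+ and CD8+ T cells came from B6 (C57BL/6) mice. CD8.1 and CD8.2 T cells came from CD8Dual mice, called 8in4 in the labels, whose altered Cd4 loci encode CD8α.1 and CD8β in place of CD4, while the Cd8 loci are intact and encode CD8α.2 and CD8β. CD8.1 T cells therefore carry a co-receptor made from the Cd4 locus, and CD8.2 T cells carry the usual one, so that the lineage comparison within B6 mice has a counterpart in CD8Dual mice. The labels give a sort on CD62L and on TCRβ (antibody H57), and the study's methods add an absence of CD44. CD62L marks T cells that enter LNs, and CD44 is high on T cells that have met antigen. Nothing says that replicates were separate animals, so the spread between samples may be partly technical. In bulk RNA, fewer cells of a type and less RNA per cell cannot be told apart.

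S100 proteins are small calcium-binding proteins that act in pairs and change the shape and motility of cells through their partners. Annexins bind membrane phospholipids when calcium is present, and several of them are held by an S100 partner. Galectins bind β-galactoside sugars on surface glycoproteins and tune receptor clustering and survival of T cells. Vimentin is the main intermediate filament of lymphocytes, and Crip1 is a small LIM-domain protein. Naive T cells keep most of these transcripts low or moderate, and T cells activated by antigen raise them, often as a group.

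The libraries held 18667474 to 37110502 counts each, and the smallest level that 3 counts allow was 0.0875 to 0.167 CPM (counts per 1000000 counts of the TMM-scaled library), which covers counting error only. Pan-T cell genes (8 genes, Cd3e and Lck among them) summed to 4580 to 5447 CPM in all samples. Cd4 was read at 908 to 1004 CPM in B6 CD4 T cells and at 47.2 to 51.5 CPM in CD8.1 T cells, and at 1.79 CPM at most elsewhere. Cd8a was read at 1389.9 to 1492 CPM in B6 CD8 and CD8.2 T cells, at 179 to 201 CPM in CD8.1 T cells and at 0.682 to 1.49 CPM in B6 CD4 T cells. Replicates of a group differed by a chi-square of 8.21 to 79.5 a gene, with the largest values for pairs that hold CD8.2 replicate 3, the deepest library. CD8.1 replicate 1 stood apart from the other CD8.1 samples (28.9 and 30.4, against 8.21 between replicates 2 and 3).

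The 4 S100 genes lie on the plus strand of chromosome 3 in the mouse genome (GRCm38, GENCODE M21 annotation), in 2 pairs. S100a4 (ENSMUSG00000001020.8, chr3:90603771-90606045) lies 6836 bases before S100a6 (ENSMUSG00000001025.8, chr3:90612882-90624181). S100a11 (ENSMUSG00000027907.4, chr3:93520488-93526287) lies 2896306 bases further on, and 28792 bases separate it from S100a10 (ENSMUSG00000041959.14, chr3:93555080-93564643). The other members are spread over the genome. Anxa1 (ENSMUSG00000024659.14) is at chr19:20373428-20390944 on the minus strand, and Anxa2 (ENSMUSG00000032231.14) at chr9:69453620-69491795 on the plus strand. Lgals1 (ENSMUSG00000068220.5) is at chr15:78926725-78930465 and Lgals3 (ENSMUSG00000050335.16) at chr14:47367751-47386160, both on the plus strand. Vim (ENSMUSG00000026728.9) is at chr2:13573927-13582826 and Crip1 (ENSMUSG00000006360.11) at chr12:113146316-113153879, again on the plus strand. An exon of S100a4 overlaps Gm42674 and an exon of Anxa2 overlaps Gm16144, and both of these overlapping genes had 0 counts in the 12 samples. Processed copies could also have taken reads: S100a11-ps had 4 counts in all samples together, and Lgals1-ps1 and Lgals1-ps2 had 0.

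Promoter sequence was found for 8 of the 10 genes in RefSeq (GRCm38.p6), all but S100a10 and Lgals1. The 150 bases before the start are shown for 5 genes on the plus strand that differed in how far they moved: the nearby S100a4 and S100a6, with the largest changes of the S100 genes, S100a11 and Anxa2, and Vim, an abundant gene with a small change. The windows are chr3:90603620-90603769 for S100a4, chr3:90612744-90612893 for S100a6, chr3:93520346-93520495 for S100a11, chr9:69453533-69453682 for Anxa2 and chr2:13574161-13574310 for Vim, written 5′ to 3′, and capitals mark 2 motifs on either strand. The first is TATAAA, the core of many promoters, and the other is TGANTCA, a sequence known to bind AP-1 factors.
S100a4: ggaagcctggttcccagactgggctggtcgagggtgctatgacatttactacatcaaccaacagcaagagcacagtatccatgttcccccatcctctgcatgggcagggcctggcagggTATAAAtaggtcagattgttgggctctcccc
S100a6: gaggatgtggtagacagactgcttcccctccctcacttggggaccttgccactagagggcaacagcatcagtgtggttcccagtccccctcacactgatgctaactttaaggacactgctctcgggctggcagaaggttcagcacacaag
S100a11: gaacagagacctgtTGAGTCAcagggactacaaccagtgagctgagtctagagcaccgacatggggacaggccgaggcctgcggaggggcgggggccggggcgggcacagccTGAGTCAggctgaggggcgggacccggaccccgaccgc
Anxa2: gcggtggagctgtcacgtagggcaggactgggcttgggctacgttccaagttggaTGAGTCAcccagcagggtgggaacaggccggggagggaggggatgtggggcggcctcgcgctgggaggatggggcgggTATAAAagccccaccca
Vim: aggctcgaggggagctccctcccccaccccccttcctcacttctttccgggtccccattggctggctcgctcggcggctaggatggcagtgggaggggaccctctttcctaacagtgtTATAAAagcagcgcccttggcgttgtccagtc
S100a4 and Vim have TATAAA at nearly the same distance, 25 and 26 bases before the start, and S100a6 has neither motif in this window. S100a11 holds TGANTCA in 2 places, and Anxa2 holds it once as well as the first motif. The letters TATAAA were found in 4 of the 8 windows (Anxa1, Anxa2, S100a4 and Vim) and in 7.58% of 32817 RefSeq mouse promoter windows of the same length. TGANTCA was found in 2 of 8 (Anxa2 and S100a11), against 4.24% of all. The GC box letters GGGCGG were in 4 of 8 (Anxa2, Crip1, Lgals3 and S100a11) and in 28.6% of all, the RUNX letters TGTGGT in 1 of 8 (S100a6) and 8.40%, and the ETS letters CCGGAA in 1 of 8 (Vim) and 9.22%, each on both strands. S100a6 and S100a4 share none of these motifs, while S100a4 and Vim share TATAAA. Any link between these letters and the levels of the genes was not tested. Such matches describe letters and not bound sites.

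S100a4 encodes a partner of non-muscle myosin that is known from motile cells. Its level in B6 CD4 replicates 1 to 3 was 0.819, 0.992 and 1.57 CPM, and in B6 CD8 replicates 0.123, 0.291 and 0.241 CPM. CD8.1 replicates had 4.68, 4.07 and 4.56 CPM and CD8.2 replicates 0.468, 0.667 and 0.467 CPM. No group overlapped another, and the order was CD8.1, B6 CD4, CD8.2 and B6 CD8. The B6 CD8 values rest on 3 to 8 counts a library, whereas each CD8.1 library held 92 to 98. On the log2 scale (edgeR estimate ± SE), the CD4 against CD8 difference in B6 mice was 2.34 ± 0.38 and the CD8.1 against CD8.2 difference was 3.07 ± 0.31. S100a4 was thus higher in the helper-lineage cells of both strains, and CD8.1 T cells exceeded B6 CD4 T cells by 1.97 ± 0.28.

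S100a6 (calcyclin), near S100a4 on the chromosome, is known from proliferating and motile cells. Replicates 1 to 3 had 5.91, 8.75 and 11.1 CPM in B6 CD4 T cells and 9.13, 10.6 and 9.09 CPM in B6 CD8 T cells, so the B6 groups overlapped. In CD8.1 T cells the values were 48.6, 49.4 and 34.8 CPM, and in CD8.2 T cells 5.79, 6.11 and 4.52 CPM. The lowest CD8.1 sample, at 34.8 CPM, lay well above the highest of all others, at 11.1 CPM, and CD8.2 T cells lay below B6 CD8 T cells without overlap. The log2 difference was -0.16 ± 0.20 between the B6 groups and 3.03 ± 0.20 between CD8.1 and CD8.2. Between strains, CD8.1 exceeded B6 CD4 by 2.36 ± 0.19, while CD8.2 fell below B6 CD8 (-0.83 ± 0.21). In B6 mice the lineages did not overlap for S100a4 and overlapped for S100a6, and both genes were highest in CD8.1 T cells.

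S100a10 (p11) lacks calcium binding and is the standing partner of annexin A2. Its levels were 193, 228 and 243 CPM in B6 CD4 T cells and 246, 267 and 274 CPM in B6 CD8 T cells. CD8Dual mice gave 359, 406 and 333 CPM in CD8.1 and 274, 270.4 and 267 CPM in CD8.2 T cells. CD8.1 samples were above all others, CD8.2 and B6 CD8 samples overlapped, and B6 CD4 samples were the lowest. The change was small beside that of S100a6: 0.44 ± 0.09 for CD8.1 against CD8.2 and 0.73 ± 0.09 for CD8.1 against B6 CD4 on the log2 scale. In B6 mice the difference was -0.25 ± 0.09 and did not pass the test, which it did without B6 CD4 replicate 3 (-0.31) and without any 1 of the CD8.1 samples.

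S100a11, whose protein is known to bind annexin A1, followed another order. B6 CD4 replicates had 51.3, 55.4 and 47.9 CPM and B6 CD8 replicates 103, 102 and 95.9 CPM. Levels were 85.3, 111 and 98.6 CPM in CD8.1 T cells and 92.0, 88.9 and 93.8 CPM in CD8.2 T cells. Here B6 CD4 T cells stood alone at the bottom, and the other groups lay close together. The log2 difference was -0.96 ± 0.09 between B6 CD4 and B6 CD8 T cells and 0.10 ± 0.09 for CD8.1 against CD8.2 T cells. CD8.1 T cells were above B6 CD4 T cells by 0.93 ± 0.09. CD8.2 and B6 CD8 T cells differed by -0.13 ± 0.09, which did not pass.

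**Figure D1:**
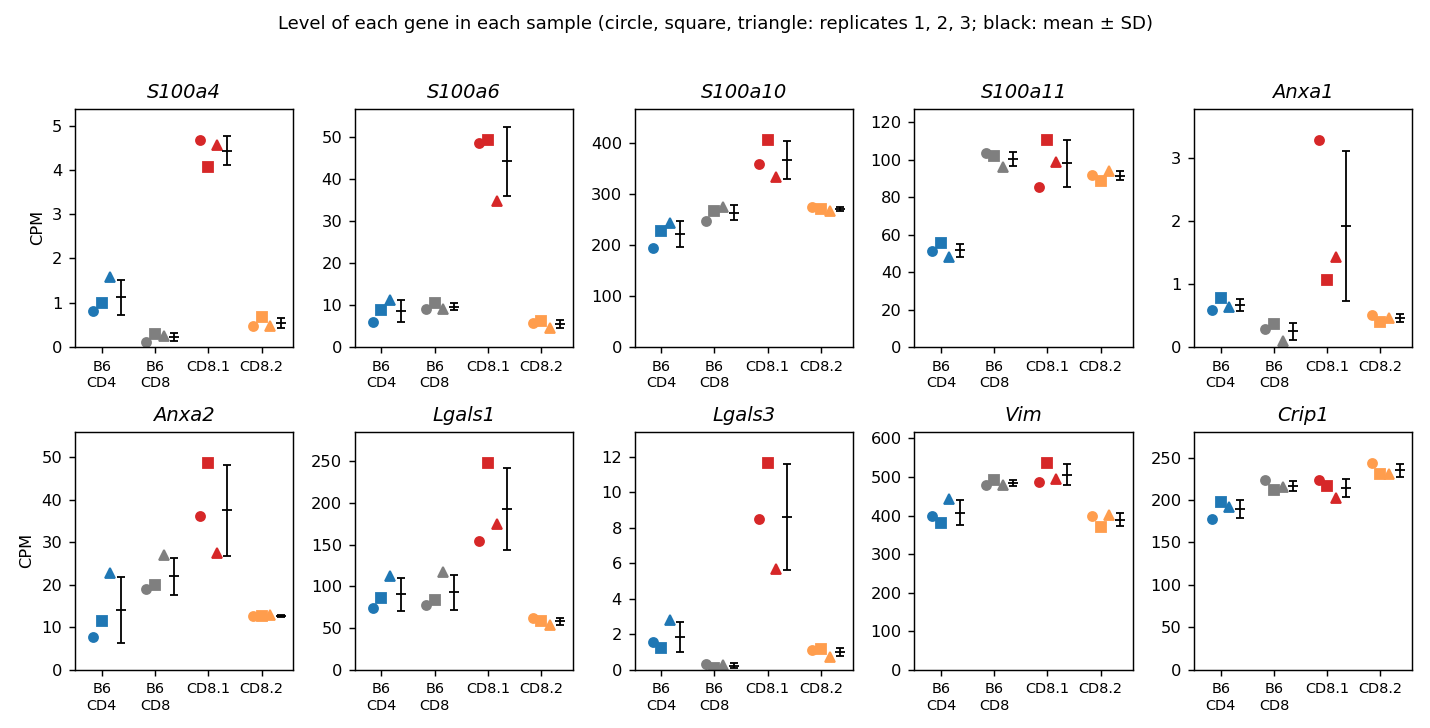
Level of the 10 genes in CPM (vertical axes, each from 0) in the 12 samples of the 4 groups; circles, squares and triangles are replicates 1, 2 and 3, and black bars give the mean and SD of 3 samples. In 7 genes all 3 CD8.1 samples lie above the other 9, while S100a11 sets B6 CD4 T cells apart and Crip1 varies little.

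Anxa1 encodes annexin A1, a phospholipid-binding protein with known anti-inflammatory action through formyl peptide receptors. Its transcript was rare, with 2 to 69 counts a library. B6 CD4 samples had 0.591, 0.776 and 0.638 CPM and B6 CD8 samples 0.287, 0.364 and 0.0962 CPM. CD8.1 samples had 3.29, 1.06 and 1.42 CPM and CD8.2 samples 0.511, 0.389 and 0.467 CPM. No group overlapped another, but CD8.1 replicate 1 was far above its fellows. The log2 difference of CD8.1 from CD8.2 was 2.05 ± 0.45 with it and 1.41 ± 0.41 without it, and passed both times. Against B6 CD4 T cells the difference was 1.51 ± 0.43 and passed, and without CD8.1 replicate 1 it was 0.87 ± 0.40 and did not. The B6 difference, 1.36 ± 0.53, did not pass, and passed without CD8.1 replicate 1 (1.36 ± 0.43).

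Anxa2 encodes annexin A2, which forms a complex with S100a10 at the inner face of the plasma membrane. The B6 CD4 replicates spread widely, at 7.82, 11.5 and 22.8 CPM, and the B6 CD8 replicates had 19.0, 19.9 and 27.0 CPM. CD8.1 replicates had 36.2, 48.7 and 27.6 CPM, and CD8.2 replicates were nearly equal at 12.6, 12.6 and 12.9 CPM. The lowest CD8.1 sample lay just above the highest B6 CD8 sample, and CD8.2 samples fell within the B6 CD4 range. On the log2 scale CD8.1 exceeded CD8.2 by 1.56 ± 0.29 and B6 CD4 by 1.42 ± 0.28. The B6 groups overlapped, with a difference of -0.64 ± 0.29 that did not pass. Without B6 CD4 replicate 3 it was -1.17 ± 0.22 and passed, and the CD8.1 against B6 CD4 difference became 1.93 ± 0.23.

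Lgals1 encodes galectin-1, a secreted sugar-binding protein that activated T cells make and that can drive T cell death. B6 CD4 and B6 CD8 replicates overlapped fully, at 73.4, 86.2 and 112 CPM and at 77.3, 84.0 and 117 CPM. CD8Dual mice separated the lineages, with 155, 248 and 174 CPM in CD8.1 and 61.8, 58.1 and 54.1 CPM in CD8.2 T cells. CD8.1 samples were the highest and CD8.2 samples the lowest of the 12. The log2 difference was -0.03 ± 0.18 in B6 mice and 1.73 ± 0.19 in CD8Dual mice. CD8.1 T cells exceeded B6 CD4 T cells by 1.09 ± 0.18, and CD8.2 T cells were below B6 CD8 T cells (-0.68 ± 0.19).

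Lgals3 encodes galectin-3, the only chimera-type galectin, which can bind T cell receptor glycans. It was present at 1.55, 1.21 and 2.81 CPM in B6 CD4 T cells and at 0.328, 0.0727 and 0.289 CPM in B6 CD8 T cells, the last from 2 to 8 counts a library. CD8.1 T cells had 8.50, 11.7 and 5.70 CPM and CD8.2 T cells 1.11, 1.17 and 0.729 CPM. As with S100a4, no group overlapped another and the order was CD8.1, B6 CD4, CD8.2 and B6 CD8. The lineage difference was alike in size in both strains, at 3.04 ± 0.50 in B6 and 3.14 ± 0.37 in CD8Dual mice on the log2 scale. Between strains Lgals3 was higher in CD8Dual cells of both lineages, by 2.21 ± 0.34 for CD8.1 against B6 CD4 and by 2.11 ± 0.53 for CD8.2 against B6 CD8.

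Vim and Crip1 were abundant and moved little. Vim, the vimentin gene, was at 379 to 444 CPM in B6 CD4 and 478 to 493 CPM in B6 CD8 T cells, and at 487 to 537 CPM in CD8.1 and 369.7 to 400.2 CPM in CD8.2 T cells. The lineages were thus in opposite order in the strains: -0.25 ± 0.07 for B6 CD4 against B6 CD8 and 0.38 ± 0.07 for CD8.1 against CD8.2. Crip1 was at 177 to 198 CPM in B6 CD4, 212 to 223 CPM in B6 CD8, 202 to 224 CPM in CD8.1 and 231 to 244 CPM in CD8.2 T cells. In both strains the helper-lineage mean was below the cytotoxic-lineage mean, by -0.20 ± 0.07 in B6 and -0.13 ± 0.07 in CD8Dual mice. The B6 call of Crip1 was lost without any 1 of the B6 or CD8.2 samples and without CD8.1 replicate 2. It was also lost with DESeq2 size factors, with either other filter, with only the groups compared and with replicate blocks. The B6 call of Vim was lost without replicate 2 of either B6 group.

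Read together by comparison, the genes were called at an adjusted P under 0.05 over all tested genes by edgeR's quasi-likelihood test. Since these contrasts may have been used to propose the genes, the background shares are given for scale and nothing is read from them. Between B6 CD4 and B6 CD8 T cells, 2 of 10 were higher (S100a4 and Lgals3) and 3 lower (S100a11, Vim and Crip1), where 11.4% of all tested genes were higher and 11.7% lower. The median log2 difference of the 10 was -0.18, beside -0.00110 over all tested genes. With the replicate number as a block, which treats same-numbered B6 samples as pairs, S100a10 (-0.25) and Anxa2 (-0.74) were also called lower. Crip1 (-0.20) was then no longer called. In CD8Dual mice, 8 of 10 were higher in CD8.1 than CD8.2 T cells, all but S100a11 and Crip1, where 14.9% of all genes were higher and 13.8% lower. The median was 1.65. These calls held without CD8.1 replicate 1 and without CD8.2 replicate 3, and Crip1 was called lower without the former (-0.18).

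Across strains, 9 of 10 were higher in CD8.1 than B6 CD4 T cells, all but Crip1, beside 6.94% of all genes higher and 5.82% lower, with a median of 1.25. The call of Vim (0.31 ± 0.07) was lost without any of 3 single samples, and that of Anxa1 without any of 4. With only the groups compared both calls were lost, and that of Anxa1 also with limma voom and with the shared replicate block. Crip1 was called higher with DESeq2's Wald test (0.18). Among cytotoxic-lineage cells 1 of 10 was higher in CD8.2 than B6 CD8 T cells (Lgals3) and 3 were lower (S100a6, Lgals1 and Vim), where 3.29% of all genes were higher and 4.66% lower. The median there was -0.04. All 4 of these calls were lost without B6 CD8 replicate 2 or without CD8.2 replicate 2, and all but Lgals3 without CD8.2 replicate 3 and all but Vim without CD8.2 replicate 1. The Lgals3 call was also lost with limma voom, and Anxa2 was called lower with no filter and with only the groups compared. The study's limits, a fold change over 5 with an unadjusted P under 0.05, were applied to this edgeR fit. Only the limits are the study's, and its own gene count is not comparable. By them the B6 lineages differed in 2 of 10 (Lgals3, 8.2-fold, and S100a4, 5.05-fold, with 3.29% of all genes called). The same limits were met by 3 of 10 between CD8.1 and CD8.2 (Lgals3, 8.81-fold, S100a4, 8.42-fold, and S100a6, 8.18-fold, with 3.32% of all genes). In the helper lineage 1 of 10 met them between strains (S100a6, 5.13-fold, with 0.61%). For CD8.2 against B6 CD8 T cells, where 0.579% of all genes met them, the largest fold among the 10 was 4.32, for Lgals3. The S100a4 fold in B6 and the S100a6 fold between CD8.1 and B6 CD4 lay close to the limit of 5. Without single samples their log2 differences were 2.03 to 2.63 and 2.14 to 2.57, so both fell under 5-fold in some of these fits.

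The lineage change itself differed between strains for 6 of 10 genes, and all 6 had the larger CD8.1-side difference. This was computed as the CD8.1 against CD8.2 difference minus the B6 CD4 against B6 CD8 difference in the same fit. The excess was 3.19 ± 0.28 for S100a6, 2.20 ± 0.40 for Anxa2, 1.76 ± 0.26 for Lgals1, 1.06 ± 0.13 for S100a11, 0.68 ± 0.13 for S100a10 and 0.62 ± 0.10 for Vim on the log2 scale. Of all tested genes, 1.58% were called with an excess and 0.29% with a deficit, and 1.16% met the fold limit of 5, as did S100a6 alone of the 10 (9.13-fold). For S100a4, Lgals3, Anxa1 and Crip1 it was 0.74 ± 0.53, 0.10 ± 0.87, 0.69 ± 0.72 and 0.06 ± 0.10, and did not pass, with wide errors for the first 3. The 6 calls were the same in number whichever single sample was left out.

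**Figure D2:**
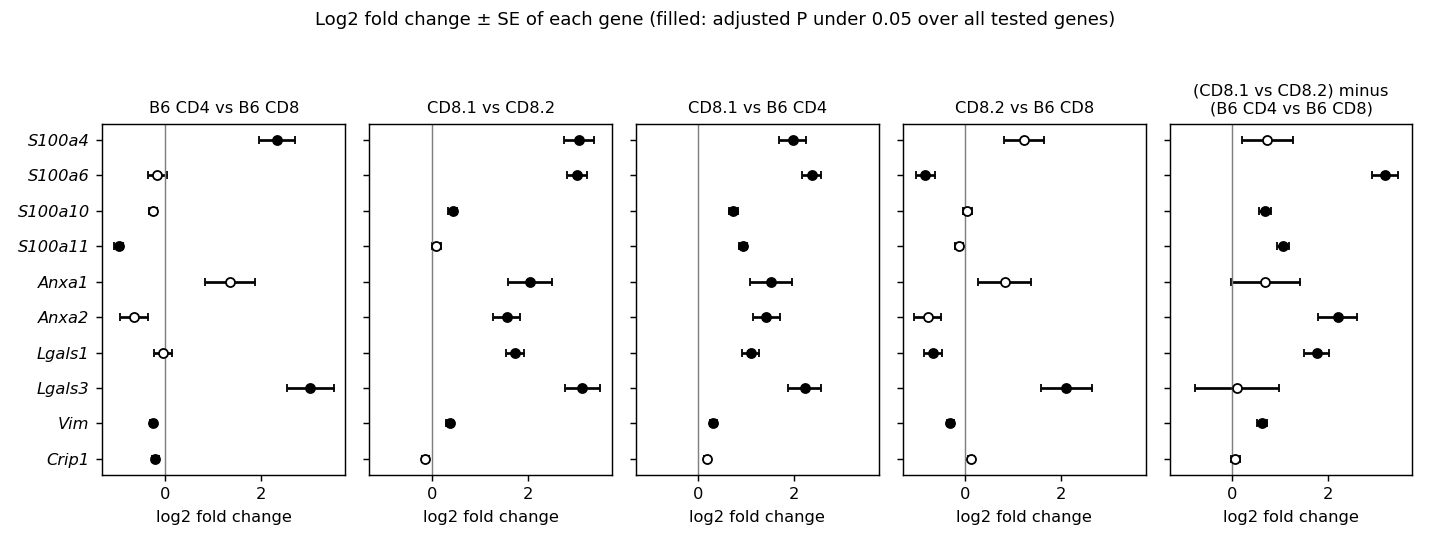
Log2 fold change of each gene (horizontal axes, one scale for all panels) with its SE in 4 comparisons and, on the right, in the difference between the strains' lineage changes; filled points passed an adjusted P under 0.05 over all tested genes. S100a4 and Lgals3 lie to the right in both lineage comparisons, whereas S100a6, Anxa2 and Lgals1 lie near or left of 0 in B6 and to the right in CD8Dual mice.

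In 7 of the 10 genes (S100a4, S100a6, S100a10, Anxa1, Anxa2, Lgals1 and Lgals3), all 3 CD8.1 samples were above the other 9, a pattern that 5.53% of all tested genes had. B6 CD8 T cells had the highest mean for S100a11, and CD8.2 T cells the highest for Crip1. Among the CD8.1 samples, replicate 2 was the highest for 7 genes and replicate 1 for 3, and among the B6 CD4 samples replicate 3 was the highest for 7. The spread between replicates was smallest in CD8.2 T cells, with a median coefficient of variation of 5.51%, and was 14.4% to 18% in the other groups.

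Summed over the 10 genes, the level was 986 ± 84.3 CPM for B6 CD4 samples, 1189 ± 29.1 for B6 CD8, 1473 ± 139 for CD8.1 and 1065 ± 26 for CD8.2 (SD, n = 3). This was 0.0945% to 0.160% of all counts. Vim, S100a10 and Crip1 made up 71.0% to 84.5% of the sum. The other 7 genes summed to 168 ± 28.8, 225 ± 21.4, 387 ± 74.9 and 170 ± 3.96 CPM in the same order. That smaller sum was 341 to 474 CPM in CD8.1 samples and 141 to 249.8 CPM in all others.

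Per length of exon, the genes fell into a high and a low set. The length was that of all annotated exons of a gene merged, for example 2280 bases for Crip1 and 1367 for S100a6. It can exceed the length of the transcript that the cells make, so ranks between genes are approximate. S100a10 was the highest in every group, at 183 ± 21.2, 217 ± 12, 302 ± 30.4 and 223 ± 2.83 CPM per kilobase in the group order B6 CD4, B6 CD8, CD8.1, CD8.2. S100a11, Lgals1, Vim and Crip1 lay between 64.2 and 213 CPM per kilobase as group means. Then came S100a6, at 4.0 to 32.4, and Anxa2, at 3.41 to 10.1, so S100a10 was far above its partner Anxa2 in every group. The rarest were S100a4, with 0.373 to 7.59, Lgals3, with 0.124 to 4.64, and Anxa1, with 0.0855 to 0.662 CPM per kilobase. Lgals1 held rank 2 in CD8.1 and rank 5 in CD8.2 T cells, the widest shift in order among the 10.

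**Figure D3:**
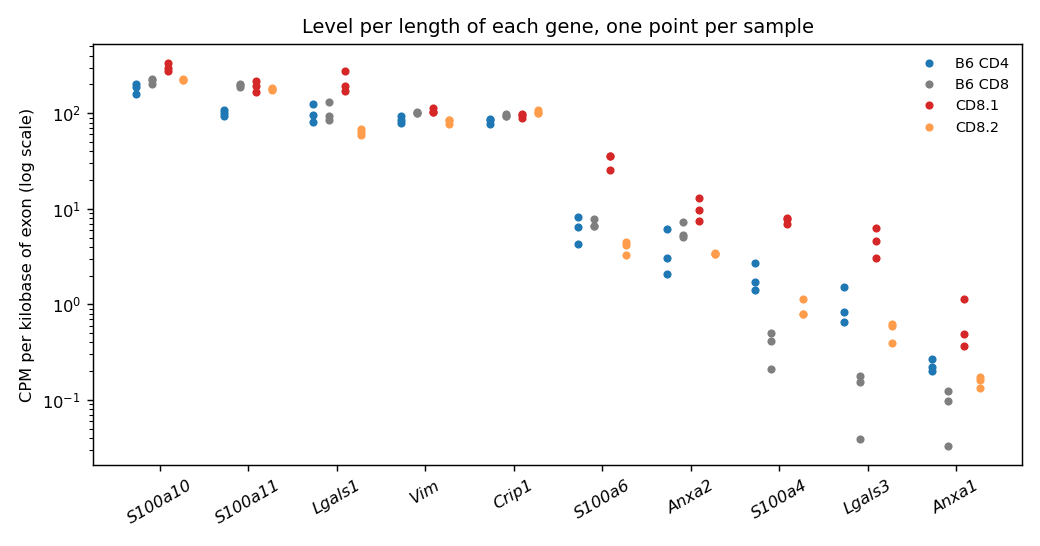
Level of the 10 genes in CPM per kilobase of merged annotated exon (vertical axis, log scale) with a point for each of the 12 samples, coloured by group and ordered by the B6 CD4 mean. S100a10, S100a11, Lgals1, Vim and Crip1 form the high set, and S100a10 is the highest in all groups.

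Relatives of the 10 genes were listed apart from them by family. Of 11 other S100 genes only S100a1 and S100a13 passed the filter. S100a13, of the same chromosome 3 cluster, was higher in CD8.1 than CD8.2 T cells (65.7 ± 5.63 against 55.4 ± 1.05 CPM, log2 difference 0.25 ± 0.08) and than in B6 CD4 T cells (0.33 ± 0.08). S100a1 was at 0.420 to 0.767 CPM as group means and passed nowhere. S100a3, which lies just before S100a4, was too rare to be tested, at 0.261 ± 0.144 CPM in CD8.1 T cells and at most 0.0571 CPM as a mean elsewhere. S100a5, between S100a4 and S100a6, had 0 counts.

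Of 10 other annexins, 6 were tested. Anxa6, the most abundant of them, was lower in helper-lineage cells of both strains, at 555 ± 9.32 against 948 ± 17.2 CPM in B6 (log2 difference -0.77 ± 0.07) and 517 ± 47.7 against 850.3 ± 48.2 CPM in CD8Dual mice (-0.72 ± 0.07). Anxa5, which binds exposed phosphatidylserine, was higher in helper-lineage cells, by 0.56 ± 0.08 in B6 and 0.34 ± 0.08 in CD8Dual mice. Anxa4 was, like Anxa2, higher in CD8.1 than CD8.2 T cells (1.10 ± 0.31) and than in B6 CD4 T cells (1.30 ± 0.31), and at 3.54 ± 0.271 CPM in CD8.1 T cells. Anxa7, like S100a11, was lowest in B6 CD4 T cells, by -0.41 ± 0.08 against B6 CD8 T cells and with CD8.1 T cells above them by 0.32 ± 0.08. The annexin list had 1 higher and 2 lower in B6, 2 higher and 1 lower between CD8.1 and CD8.2, and 2 higher between CD8.1 and B6 CD4, with medians of -0.10, -0.18 and 0.10.

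Of 8 other galectins listed, 7 were in the table and 5 were tested. Lgals9, the most abundant, was at 229 to 263 CPM as group means and passed in no comparison. Lgals8 was lower in B6 CD4 than B6 CD8 T cells (-0.31 ± 0.09). Lgals4 and Lgals7 were rare and were higher in CD8.1 than CD8.2 T cells, at 0.604 ± 0.216 against 0.130 ± 0.131 CPM and at 0.476 ± 0.126 CPM against 0 counts. Lgals7 was also higher in B6 CD4 than B6 CD8 T cells, at 0.579 ± 0.148 against 0.0160 ± 0.0278 CPM.

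Of 7 tested genes for other LIM and filament proteins, 3 were higher in B6 CD4 than B6 CD8 T cells, 3 in CD8.1 than CD8.2 and 2 in CD8.1 than B6 CD4. Lmna passed in all of these. It encodes lamins of the nuclear envelope and was at 2.20 ± 0.598, 0.982 ± 0.672, 5.51 ± 0.677 and 0.859 ± 0.221 CPM in the group order B6 CD4, B6 CD8, CD8.1, CD8.2. Its log2 difference was 2.71 ± 0.37 between CD8.1 and CD8.2 and 1.32 ± 0.33 between CD8.1 and B6 CD4. Csrp1 and Csrp2, relatives of Crip1, were higher in helper-lineage cells of both strains, by 0.38 ± 0.10 and 1.68 ± 0.37 in B6 and by 0.30 ± 0.10 and 1.59 ± 0.33 in CD8Dual mice, where Crip1 was not. Of 4 tested partners and receptors, Ahnak, a large scaffold held by the S100a10 and annexin A2 complex, was called in all comparisons. Its level was 14.6 ± 1.59 CPM for B6 CD4 samples and 91.2 ± 14.6 CPM for B6 CD8, against 25.3 ± 4.64 CPM for CD8.1 and 43.8 ± 4.81 CPM for CD8.2. Its lineage difference of -2.65 ± 0.15 in B6 mice was -0.79 ± 0.14 in CD8Dual mice, and B6 CD8 T cells had its highest mean, where CD8.1 T cells had that of S100a10 and Anxa2. Lgals3bp, a ligand of galectin-3, was lower in B6 CD4 than B6 CD8 T cells (-0.73 ± 0.12) and lower in CD8.2 than B6 CD8 T cells (-0.51 ± 0.12), while Tlr4 and Mgat5 passed nowhere.

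A list of 20 other genes of effector and memory T cells, all tested, was set beside the 10. It split within strains: 4 higher and 13 lower in B6 CD4 than in B6 CD8, and 8 higher and 8 lower in CD8.1 than CD8.2 T cells, with medians of -0.63 and 0.14. In CD8.1 relative to B6 CD4 T cells 16 of 20 were higher, with a median of 1.00, and between CD8.2 and B6 CD8 T cells 1 was higher and 7 lower, with a median of -0.12. The 4 with the largest CD8.1 against B6 CD4 difference were Itgae (2.65 ± 0.16), Ccr2 (2.38 ± 0.31), Klrg1 (2.13 ± 0.30) and Ly6c2 (2.04 ± 0.16). Ccr2, a chemokine receptor, was at 3.08 ± 1.12, 13 ± 3.78, 16.1 ± 6.86 and 2.77 ± 0.311 CPM in the group order B6 CD4, B6 CD8, CD8.1, CD8.2. Its lineage change differed between strains by 4.62 ± 0.44 on the log2 scale, a description, since the list was chosen with earlier results of these data known. Itgae, an integrin chain, was highest in B6 CD8 T cells at 246 ± 15.9 CPM, and its level was 29.1 ± 1.78 CPM for CD8.1 and 4.62 ± 1.53 CPM for B6 CD4 samples. Cd44 was higher in CD8.1 than B6 CD4 T cells (72.0 ± 5.13 against 35.1 ± 2.16 CPM, log2 difference 1.04 ± 0.12).

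The genes whose level ran most like the mean of the 10 were Lclat1, Plp2, Fam129a, Cdc25b and Mbnl3. Their Pearson r with that mean was 0.948, 0.948, 0.921, 0.921 and 0.916 over the 12 samples, among 7972 genes with a mean of at least 10 CPM. For deviations from the group means r was lower, at 0.673, 0.626, 0.402, 0.525 and 0.362. The share of the likeness that lies between groups was not computed. Plp2, a membrane protein of the effector list, was at 55.2 CPM as a mean in CD8.1 and at 30.7 to 36.1 CPM in the other groups. All groups enter this r through the same 12 libraries, and the likeness is a description.

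Markers of other cell states and types moved with CD8.1 T cells too, and their part in the levels of the 10 genes was not tested. All 9 genes of regulatory T (Treg) cells were higher in CD8.1 than B6 CD4 T cells, and Foxp3, the factor that defines them, was at 139.7 ± 33.9 against 38.3 ± 6.0 CPM. The Treg list summed to 806 to 952 CPM in CD8.1, 365 to 473 in B6 CD4, 94.6 to 103 in B6 CD8 and 99.7 to 114 CPM in CD8.2 T cells. The 8 proliferation genes summed to 112 to 178 CPM in CD8.1 samples, 67.6 to 115 in B6 CD4, 40.9 to 146 in B6 CD8 and 43.2 to 72.4 CPM in CD8.2 samples. Of these genes Birc5 was called higher against B6 CD4 T cells, and 4 of 8 against CD8.2 T cells. B cell genes summed to 93.8 to 146 CPM in CD8.1, 67.2 to 84.0 in B6 CD4, 57.4 to 70.0 in B6 CD8 and 67.4 to 119 CPM in CD8.2 T cells, and Cd79a and Cd79b of the 6 passed between CD8.1 and B6 CD4. Myeloid genes summed to 99.1 to 109 CPM in CD8.1, 66.1 to 82.0 in B6 CD4, 77.4 to 80.2 in B6 CD8 and 80.1 to 103 CPM in CD8.2 T cells. In that list 5 of 7 tested genes were higher in CD8.1 than B6 CD4 T cells, Lyz2 (11.5 ± 2.26 against 3.76 ± 1.49 CPM), Csf1r (0.995 ± 0.296 against 0.219 ± 0.0449), Cd68 (1.33 ± 0.338 against 0.346 ± 0.142), Fcer1g (0.934 ± 0.401 against 0.318 ± 0.117) and Cst3 (87.0 ± 6.18 against 70.2 ± 7.05). The other tested genes of the list, Adgre1 (0.467 ± 0.259 against 0.114 ± 0.160 CPM) and Itgam (0.766 ± 0.289 against 1.06 ± 0.136 CPM), did not pass, and the Itgam mean was lower in CD8.1 T cells. The symbol Itgam is repeated in the count table, and only its row with the most counts was read. Of the 3 listed genes too rare to be tested, Cd14 was at 0 in 10 samples, and S100a8 and S100a9 were at 0.214 CPM at most as group means. For the cytotoxic lineage Lyz2 was at 9.96 ± 5.39 CPM in CD8Dual and 2.30 ± 1.46 CPM in B6 mice. The NK and NKT list, most of it Eomes, also a T cell factor, summed to 7.73 to 15.3 CPM in CD8.1, 5.32 to 7.85 in B6 CD4, 71.3 to 115 in B6 CD8 and 76.8 to 82.5 CPM in CD8.2 samples. Eomes was higher in CD8.1 than B6 CD4 T cells, by 0.79 ± 0.23 on the log2 scale. Klrb1c, the other tested gene of this list, was at 0.545 ± 0.409 against 0.318 ± 0.176 CPM there and did not pass. Ncr1, too rare to be tested, had the lower mean in CD8.1 T cells (0.138 ± 0.0791 against 0.216 ± 0.127 CPM). Zbtb16, the factor of NKT cells, was at 0.191 to 1.02 CPM in CD8.1 samples, at 0.0426 CPM in 1 CD8.2 sample and at 0 in the other 8.

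Naive T cell genes summed to 5629 to 6521 CPM over all samples, and 3 of 10 were lower in CD8.1 than B6 CD4 T cells (Satb1, Bach2 and Foxp1). The 8 pan-T cell genes had a median log2 difference of 0.02 there. Stromal and endothelial genes summed to 138 to 159 CPM in CD8.1, 167 to 207 in B6 CD4, 105 to 129.8 in B6 CD8 and 101.3 to 113 CPM in CD8.2 samples, nearly all of it Pecam1, which T cells also express.

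**Figure D4:**
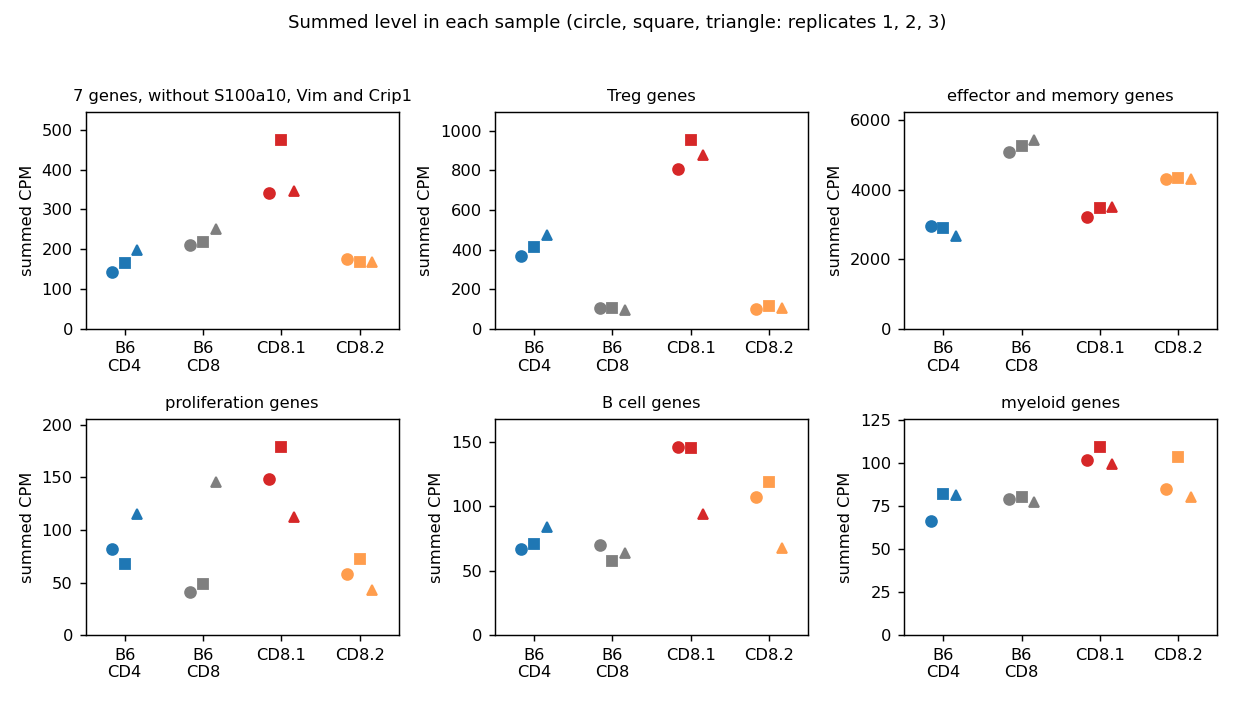
Summed CPM (vertical axes, each from 0) of 7 of the 10 genes (all but S100a10, Vim and Crip1) and of the Treg, effector and memory, proliferation, B cell and myeloid lists in the 12 samples. Circles, squares and triangles are replicates 1, 2 and 3. CD8.1 samples are the highest for the 7 genes and for the Treg list, and the effector and memory list is highest in B6 CD8 samples.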

How the data were processed

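RNA-seq counts of 12 samples, 3 per group, were analysed, with groups and replicate numbers taken from the sample labels. By the study's methods, read pairs were aligned to mm10 with STAR and counted for each gene with RSEM. The column headings of the counts name STAR and not RSEM, so the tool that made these counts is not certain. The table deposited by the authors holds the raw counts as whole numbers. The submitters' processing notes also name limma. Tool versions, annotation release and use of strand are not given in the sources used here, so a gene and an antisense partner cannot be told apart. The table had 0 columns without a sample. Gene positions are from GENCODE M21, of which 43749 of the 49585 gene identifiers match with their version. For Anxa1, Lgals1 and Lgals3 the version differed and the identifier was matched without it.

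Counts were fitted in R 4.3.3 with edgeR 4.0.16 (filterByExpr, TMM, glmQLFit and glmQLFTest) as a single model of all 12 samples with a mean per group, and P values were adjusted by the Benjamini-Hochberg method over 13118 genes. The common biological coefficient of variation was 11.2%. Standard errors came from the fold change and the F statistic. CPM are counts scaled by TMM library sizes. In a test on data simulated with the spread of this fit, 92.5% of genes changed 4-fold between B6 CD4 and B6 CD8 T cells were recovered, and 92.0% for CD8.1 against CD8.2. In these comparisons 14 and 13 unchanged genes were called. Smaller changes were not simulated, so the test does not give the recovery of these. Every total lay between 18667474 and 37110502 counts.

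The 10 genes and all lists were chosen with earlier results of these data known. Besides the 10, genes were named by a rule: from each list up to 4 called genes a comparison with the largest fold, the members needed to account for a list of 5 or fewer, and the 5 genes most like the mean of the 10. S100a3, S100a5, Anxa7, Cd44, Lyz2, Lgals9, Tlr4, Mgat5 and genes of the marker lists outside that rule were named after their values were seen. Same-numbered B6 samples deviated together from their group means (r of 0.126, 0.138 and 0.257 across genes), and differently numbered B6 samples gave r of -0.221 to 0.0999. Some samples of different strains, which come from different mice, reached 0.170 and 0.167. These values therefore do not settle whether the B6 samples are paired. The main fit used no pairing, and replicate numbers entered as a block only in alternatives. For CD8.1 and CD8.2 samples r was -0.00, 0.09 and 0.12, and no pairing was taken. Alternatives were DESeq2 1.42.0 (size factors or Wald test), limma 3.58.1 (voom), other filters and limits, only the groups compared, replicate blocks, and each sample left out. Figures were drawn with matplotlib 3.10.9.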

Additional observations from a re-analysis of the deposited data

Results flagged for a closer look

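The results below are those whose lineage change (CD8.1 against CD8.2, minus B6 CD4 against B6 CD8) differed between the strains at an adjusted P under 0.05 in the edgeR fit, in log2 units. Among the 10 genes the difference was 3.19 for S100a6, 2.20 for Anxa2, 1.76 for Lgals1, 1.06 for S100a11, 0.68 for S100a10 and 0.62 for Vim, as described above. These 6 were part of a list proposed with the data in view, and the values are a description.

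Of the listed partners, Ahnak differed by 1.86, its B6 CD8 excess being smaller in CD8Dual mice. In the effector and memory list, Ccr2 had the largest value, 4.62, with opposite lineage order in the strains. For the following genes the excess in the cytotoxic lineage was smaller in CD8Dual than in B6 mice: Itgae by 3.93, Ccl5 by 3.47, Myo1f by 3.05, Ly6c2 by 2.95, Il2rb by 1.93, Nkg7 by 1.81 and Cxcr3 by 1.51. Cd44 differed by 0.92, lower in B6 CD4 than in B6 CD8 and higher in CD8.1 than CD8.2 T cells. Itgb1 differed by 0.89, and was called lower in B6 CD4 than B6 CD8 T cells and not called in CD8Dual mice. Capg, higher in helper-lineage cells of both strains, differed by 0.75, and so did Plp2, by 0.75, which was called for CD8.1 against CD8.2 and not in B6 mice.

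Among the marker lists, 2 genes of the Treg list differed in the same direction. Ikzf2 differed by 2.65 and was called higher in CD8.1 than CD8.2 T cells but not called in B6 mice, and Nrp1 differed by 1.51 and was higher in helper-lineage cells of both strains. The part of Treg genes in the levels of the 10 genes was not tested.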

How the results depend on the processing

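Over the alternatives the direction of each called gene was kept. Of the 10 genes, by a fold limit of 5, 2 were called between the B6 lineages, 3 between CD8.1 and CD8.2, 1 between CD8.1 and B6 CD4, 0 between CD8.2 and B6 CD8 and 1 for the strain difference. A 2-fold limit on adjusted calls left 2 in B6 and 1 for CD8.2 against B6 CD8. Between CD8.1 and CD8.2 it dropped S100a10 (1.35-fold) and Vim (1.30-fold). Between CD8.1 and B6 CD4 it dropped S100a10 (1.65-fold), S100a11 (1.91-fold) and Vim (1.24-fold). For the strain difference S100a10 (1.61-fold) and Vim (1.54-fold) were dropped. Without single samples the counts were 3 to 7 in B6, 8 to 9 for CD8.1 against CD8.2, 7 to 9 for CD8.1 against B6 CD4, 0 to 5 for CD8.2 against B6 CD8 and 6 to 6 for the strain difference. Over all genes in the same order, the fold limit of 5 gave 431, 435, 80, 76 and 152, and the limit of 2 gave 1104, 1200, 408 and 222 for the first 4. Only the groups compared gave 674 for CD8.1 against B6 CD4 and 2515 for CD8.2 against B6 CD8, no filter gave 1593 for the latter and 620 for the strain difference, and DESeq2's Wald test 410 for that. Without single samples the ranges were 2418 to 3748, 2632 to 5013, 765 to 2958, 431 to 1913 and 165 to 1356, beside 3030, 3771, 1674, 1042 and 245. The highest of each came without CD8.1 replicate 1. For CD8.1 against B6 CD4 the low values came without B6 CD4 replicate 1 (765) or 2 (872) or CD8.1 replicate 2 (845), and for CD8.2 against B6 CD8 without B6 CD8 replicate 1 (476) or 2 (431) or CD8.2 replicate 1 (554), 2 (441) or 3 (440). The cause was not tested. Listed relatives and effector genes, an alternative set chosen after seeing the data, went from 27, 26, 22, 12 and 13 to 10, 9, 2, 1 and 5 at the fold limit of 5 and to 15, 15, 12 and 6 at the limit of 2, and to 25 to 29, 20 to 27, 19 to 23, 10 to 14 and 12 to 15 without single samples. With a replicate block fitted separately in B6 and CD8Dual mice, 6 of the 10 genes were called in B6 and 8 between CD8.1 and CD8.2, with 3194 and 4101 genes in all, and the block shared by the strains lost the Anxa1 call between CD8.1 and B6 CD4 as well as Crip1 in B6. The within-strain block was not run for comparisons between strains. CD8.1 replicate 1 moved Anxa1, and B6 CD4 replicate 3 moved Anxa2, as given above. Depth limits S100a4, Anxa1 and Lgals3 in B6 CD8 T cells, at 2 to 10 counts a library.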
